A study of Mus musculus with 4 samples.

Results

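The trefoil factors Tff1, Tff2 and Tff3 and the receptors proposed for them, Cxcr4 and Lingo2, were followed in small intestinal tumours of 2 sizes. The 5 genes were taken by name, older names included. On the bead arrays used, 4 of them were represented, by 5 of 45281 probes: 1 probe each for Tff2, Tff3 and Cxcr4, and 2 for Lingo2. No probe carried the name Tff1 or its older names Bcei and PS2, and Tff1 was not analysed here. Both tumour sizes came from the same animals, ApcMin/+ mice on a C57BL/6J background, 30 weeks of age, with no agent given in the labels. In ApcMin/+ mice a single allele of the tumour suppressor Apc, which restrains Wnt signalling, is truncated, and many intestinal adenomas form. From each of 2 mice, 3 tumours of at most 2 mm in diameter (small) and 3 tumours of 4 to 5 mm (large) were pooled before RNA extraction, so that each size had 2 arrays, each of a pool from a single animal. No normal mucosa was among the samples, and a pool holds whatever stroma and immune cells its tumours held. The title of the study names Tff2 in connection with tumour enlargement, which is the question the size comparison addresses.

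Trefoil factors are small secreted peptides with a compact fold, the trefoil domain, held together by disulphide bonds. They are released with mucins and take part in the protection and repair of the epithelial surface. In the normal gut Tff1 belongs to the surface mucous cells of the stomach, Tff2 to gastric mucous neck cells and the Brunner glands of the duodenum, and Tff3 to intestinal goblet cells. Their receptors are less settled. Cxcr4, the receptor of the chemokine Cxcl12 on leukocytes and other cells, has been proposed to signal in response to Tff2, and Lingo2, a membrane protein with leucine-rich repeats best known from neurons, has been proposed to bind Tff3. The genes Tff3, Tff2 and Tff1 lie next to each other, in that order, on mouse chromosome 17.

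Between 18969 and 19990 probes were detected per array, meaning a detection p-value under 0.05 against the array's negative controls, and the median probe was read from 41 to 42 beads. The small pool of mouse 2 correlated least with the others (Pearson r across genes of 0.940 to 0.952, against 0.963 to 0.978 among the other 3 arrays; genes are not independent replicates). The epithelial markers Vil1, Cdh1, Cdx1, Cdx2 and Krt20 were detected on all 4 arrays and Epcam only on both large pools, through a dim probe. None of 6 exocrine pancreas genes (Cpa1, Cel, Pnlip, Ctrb1, Cela2a and Cela3b) was detected on any array. In pooled tissue, fewer cells of a type and less RNA per cell cannot be told apart.

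Tff2 was the member with the largest difference and was higher in the large tumours of both mice. In mouse 1 its scanner signal, a linear intensity without normalization, was 415.6 ± 25.9 (bead standard error, 33 beads) in the small pool and 3138 ± 82.4 (47 beads) in the large pool. In mouse 2 it was 891.0 ± 40.2 (36 beads) in the small pool and 11102 ± 463 (43 beads) in the large pool. Both large pools thus lay above both small pools, and at each size mouse 2 lay above mouse 1.

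The ratio of large to small signal for Tff2 was 7.55 ± 0.511 in mouse 1 and 12.5 ± 0.766 in mouse 2 (error propagated from the beads). The bead error describes the reading of a single array and does not include the variation between tumours or animals. After background correction and quantile normalization the ratios were 8.27 and 13.2, and in the authors' normalized values 7.67 and 12.9. The animals also differed from each other within a size: the normalized Tff2 intensity of mouse 2 was 1.84 times that of mouse 1 in small pools and 2.94 times in large pools. The difference between sizes was larger than the difference between mice at either size.

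**Figure D1:**
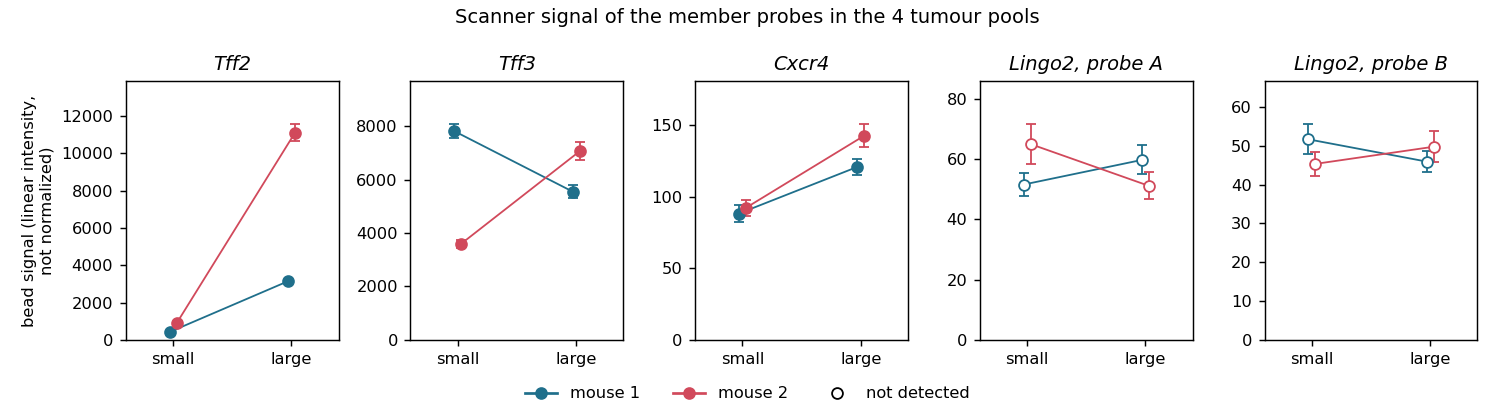
Scanner signal (linear intensity, not normalized; every axis starts at 0) of the 5 member probes in small and large tumour pools; each point is an array, lines join the pools of a mouse, bars are bead standard errors, and open points were not detected. Lingo2 probe A is 2750553 and probe B is 5340193. Tff2 is higher in the large pool on both lines (415.6 against 3138 and 891.0 against 11102), the Tff3 lines cross, and the Lingo2 points are all open.

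On the log2 scale the normalized intensity of Tff2 averaged 9.11 ± 0.62 (SD, n = 2) for the small pools and 12.49 ± 1.10 (SD, n = 2) for the large ones. The mean difference of 3.39 corresponds to a 10.5-fold higher level in large tumours, with a limma 95% interval of 4.22 to 25.9-fold. Among 20214 tested probes, those detected on at least 2 arrays, this difference ranked 5 from the top in mouse 1, 18 in mouse 2 and 3 in the mean of both. At least 2-fold higher levels in both mice were found for 0.942% of tested genes. Tff2 did not pass limma without the mouse as a block (Benjamini-Hochberg adjusted p = 0.516), where 0 probes passed (0.0% of 20214) and 1563 had an unadjusted p under 0.05 (7.73%). With the mouse as a block, since both sizes came from the same animals, Tff2 passed (limma adjusted p = 0.000687, interval 6.25 to 17.5-fold), as did 0.594% of tested probes (0.336% as higher), and it was the only member to do so. An exact permutation test of 2 pools against 2 cannot give less than p = 0.333 (two-sided).

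The call with the block rested on a spread pooled over probes, since that fit left 1 residual degree of freedom per probe. It was kept by 5 of 9 fits with the block, and lost with no background correction (limma adjusted p = 0.0597), an offset of 50 (0.191), no detection filter (0.703) or no pooling of the spread (0.862). Without the block, Tff2 passed when the large pool of mouse 1 was left out (limma adjusted p = 3.05e-05, log2 difference 4.16) and when that of mouse 2 was left out (0.0337, 2.61), where the lone large pool is assumed to vary like the small ones. The log2 difference itself stayed between 2.61 and 4.16 over all 19 alternatives.

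**Figure D2:**
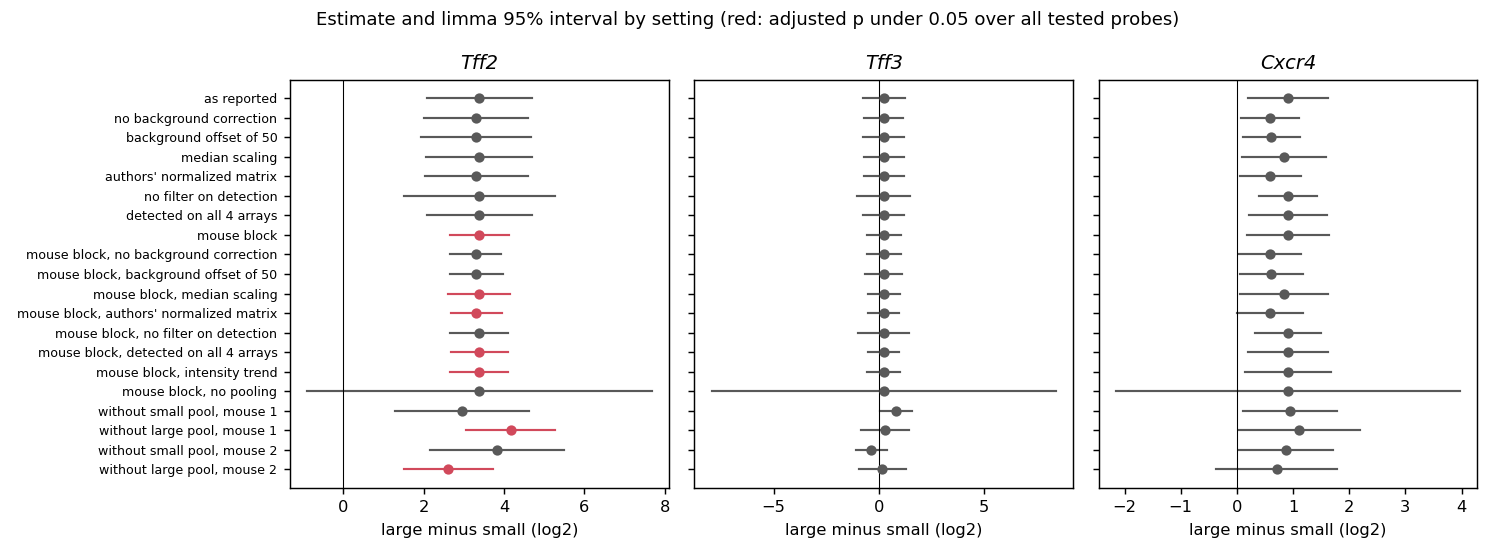
Large minus small log2 difference (points) and limma 95% interval (lines) of Tff2, Tff3 and Cxcr4 under the reported setting and each alternative; red marks a Benjamini-Hochberg adjusted p under 0.05 over all tested probes. The Tff2 points lie between 2.61 and 4.16 throughout while only 7 of the 19 alternatives are red, and no Tff3 or Cxcr4 point is red.

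Tff3, the goblet cell trefoil factor, differed in opposite directions in the mice. Its signal in mouse 1 was 7817 ± 261 (bead standard error) in small and 5553 ± 234 in large tumours. In mouse 2 the order was the opposite, 3603 ± 151 in small and 7062 ± 345 in large tumours. The large pools lay between the small pools, so the groups overlapped, and the lowest and the highest value of Tff3 were both from small tumours. The ratio of large to small signal was 0.710 ± 0.0382 in mouse 1 and 1.96 ± 0.126 in mouse 2.

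Over both mice, the normalized log2 intensity of Tff3 averaged 12.33 ± 0.83 (SD, n = 2) for the small pools and 12.57 ± 0.09 (SD, n = 2) for the large ones. The difference of 0.24 did not pass limma (adjusted p = 0.892, or 0.878 with the mouse as a block), and its 95% interval ran from -0.75 to 1.24, which includes changes in either direction. The direction rested on a single array: without the small pool of mouse 2, which correlated least with the others, the log2 difference was -0.34. Between the mice, the normalized Tff3 intensity of mouse 2 was 0.445 times that of mouse 1 in small pools and 1.09 times in large pools. The trefoil genes therefore differed between the animals in different ways, Tff2 being higher in mouse 2 at both sizes.

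None of the measured genes beside the trefoil cluster passed the test. The neighbours were taken by position, after the values of the members had been seen. Of the 4 protein-coding genes before Tff3 and the 4 after Tff1 in the RefSeq order of GRCm38.p6, Glp1r, Umodl1, Tmprss3 and Ubash3a were not detected on any array. Abcg1, a cholesterol exporter, differed by -0.60 in mouse 1 and 1.27 in mouse 2 (large minus small, log2), and Rsph1, a ciliary protein, by -0.13 and 1.17. Dnah8, an axonemal dynein, differed by -0.20 and -0.72, and Slc37a1, a sugar phosphate transporter, by -0.23 and -0.30. Abcg1 was detected on 2 arrays and Dnah8 on 3, so their differences include undetected pools and are given here without a bound. For these 4 genes the limma adjusted p was 0.671 to 0.860 over both fits. Tff2 and its closest neighbour on the array, Tff3, differed by 3.39 and 0.24 in the mean.

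Cxcr4 was dim on every array, and higher in the large pool of both mice. Its signal was 88.4 ± 5.69 (bead standard error, 19 beads) in the small and 121.0 ± 5.46 in the large pool of mouse 1. It was 92.4 ± 5.55 in the small and 142.9 ± 8.04 in the large pool of mouse 2. The probe was detected on all 4 arrays, and both large pools lay above both small pools, as was the case for 22.2% of all tested genes. The small pools of the 2 mice differed by less than the bead error (4.04 ± 7.95 signal units), whereas the large pools differed by 21.9 ± 9.71.

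The signal ratio of large to small for Cxcr4 was 1.37 ± 0.108 in mouse 1 and 1.55 ± 0.127 in mouse 2. On the normalized log2 scale Cxcr4 averaged 5.67 ± 0.05 (SD, n = 2) for the small pools and 6.58 ± 0.29 (SD, n = 2) for the large ones, a 1.88-fold difference with a limma 95% interval of 1.15 to 3.08-fold. It did not pass over all probes (unadjusted p = 0.0193, limma adjusted p = 0.588, or 0.312 with the mouse as a block; higher in 2 of 2 mice). Because the signal lies near the background, the size depends on the correction: the log2 difference was 0.91 as reported, 0.59 with no background correction and 0.59 in the authors' normalized values. It ranked 643 of 20214 probes in the mean, against 3 for Tff2.

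Genes of the Cxcr4 pathway did not follow a single direction. Of 10 genes fixed as a list, 8 were tested, 2 were higher and 4 lower in both mice, and none passed limma with or without the block. Their median differences (large minus small, log2) were -0.16 in mouse 1 and -0.15 in mouse 2, against 0.03 and 0.01 over all 13902 tested genes, of which 30.7% were higher and 26.7% lower in both mice. Cxcl12, the ligand of Cxcr4, differed by -0.00 in mouse 1 and -0.42 in mouse 2 at its brightest probe, and over both mice by -0.21 to -0.59 across its 3 tested probes. Ackr3, the scavenging receptor that shares this ligand, was not detected on any array.

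Mif, a cytokine reported to bind Cxcr4, differed by 0.31 in mouse 1 and 0.49 in mouse 2 (log2), and Cd74, the invariant chain that also serves as a Mif receptor, by -0.84 and -0.66. Of the signalling components, Gnai2, the inhibitory G protein subunit through which the receptor couples, differed by 0.03 and 0.68, and Pik3cg, a phosphoinositide kinase subunit of leukocytes, by -0.60 and 0.13. Among genes that dampen the receptor, Grk6, a receptor kinase, differed by -0.03 and -1.54, and Arrb2, the arrestin that follows it, by -0.29 and 0.69. Rgs1, a brake on G protein signalling in lymphocytes, differed by -1.86 and -0.76 at its brightest probe. Its limma adjusted p was 0.605 without and 0.156 with the block, the lowest with the block on this list. Hmgb1, which forms a complex with Cxcl12, was detected on 1 array and not tested.

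Markers of the cells that may carry Cxcr4 stood as follows, and their part in its difference was not tested. Of 10 leukocyte genes 7 were tested, 3 higher and 3 lower in both mice, and their median differences (log2) were -0.29 in mouse 1 and 0.93 in mouse 2. The calgranulin genes S100a8 (1.72 and 3.38) and S100a9 (1.67 and 3.34), which neutrophils express strongly, rose and passed limma with the block (adjusted p = 0.0206 and 0.0218; 0.569 and 0.516 without it). No gene could pass with the block under the 4 settings in which 0 probes passed. These calls were not examined under the other alternatives. Csf3r, the receptor of granulocyte colony-stimulating factor, differed by 0.95 (a bound, since the small pool was not detected) and 0.93 at its brightest tested probe, but by 0.13 and -0.09 at its other tested probe, and neither passed. Cd3e, a T cell gene of the receptor complex, differed by -1.18 and -1.34 and did not pass (limma adjusted p = 0.131 with the block). Itgam was not detected on any array. The pan-leukocyte genes Laptm5 (-0.50 and -0.64) and Ptprc (bounds of -0.28 and -0.33) were lower in both mice without passing. Ptprc was detected in the small pools only and passed the filter through them, so its direction carries little weight. Its other probes were not detected on any array. The summed signal of the tested leukocyte genes was 3484 to 4279 in small and 5105 to 6012 in large pools. Without S100a8 and S100a9, the sum of the other 5 was 3009 to 3394 in small and 2073 to 2414 in large pools.

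Of 5 endothelial genes, 4 were tested, and 3 were higher in both mice without passing. The junction gene Cdh5 differed by 0.68 in mouse 1 and 1.49 in mouse 2, the angiopoietin receptor gene Tek by 0.55 and 1.61, and Emcn, an endothelial sialomucin, by 0.47 and 0.79 (limma adjusted p with the block of 0.231 to 0.530). The fourth, the adhesion molecule gene Pecam1, differed by 0.75 and -0.08 at its brightest probe. Its other tested probe was higher in both mice (0.12 and 0.35) without passing. Kdr was not detected on any array. The summed signal of the tested endothelial genes was 743 to 817 in small and 1067 to 1317 in large pools.

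Lingo2 was not detected in any of the 4 pools by either probe. At probe 2750553 the signal in mouse 1 was 51.6 ± 3.93 in small and 59.8 ± 4.84 in large tumours, with detection p-values of 0.505 and 0.198. In mouse 2 it was 65.0 ± 6.64 and 51.2 ± 4.49, with detection p-values of 0.0915 and 0.587. At probe 5340193 the signals lay between 45.3 and 51.7, with detection p-values of 0.503 to 0.953. No fold is given, since neither size was above background, and a transcript below the reach of these probes would look the same.

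The other Lingo family members, Lingo1, Lingo3 and Lingo4, were not detected on any array either. Lingo3 has been proposed to respond to Tff2. Neuronal and glial genes, the main setting in which Lingo2 is known, were near the limit: 1 to 5 of 8 were detected per array, 4 were tested and none passed limma with or without the block. Their median differences (log2) were 0.07 in mouse 1 and 0.73 in mouse 2. The ubiquitin hydrolase gene Uchl1 differed by 0.05 and 1.27. Snap25 and S100b were not detected on any array.

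Other genes whose products have been proposed to bind trefoil peptides or to act downstream of them gave no calls. Of 6 such genes, Lingo3 included, 5 were tested, 0 were higher and 2 lower in both mice, and none passed limma with or without the block. Dmbt1, a secreted scavenger receptor of mucosal surfaces that binds Tff2 in other tissues, was bright and differed by -0.60 in mouse 1 and -1.28 in mouse 2 (log2; limma adjusted p = 0.588 without and 0.306 with the block), with signals of 15376 and 16680 in small and 9502 and 8254 in large pools. Both small pools of Dmbt1 lay above both large pools, as did those of 17.6% of all tested genes. Egfr, the epidermal growth factor receptor, differed by -0.05 and -0.24 at its brightest probe, and its 5 probes disagreed in sign. The protease-activated receptor genes F2rl1 (-0.30 and 0.46) and F2rl3 (-0.24 and 0.56) and the integrin gene Itgb1 (0.23 and -0.32) went opposite ways in the mice at their brightest probes. The other tested probe of Itgb1 was lower in both mice (-0.14 and -1.22).

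Genes listed for the glands that secrete Tff2, not all of them restricted to these glands, were higher with it. Of 8 genes listed for gastric mucous neck cells and Brunner glands, each with a tested probe, 8 had higher normalized values in both mice, against 30.7% of all tested genes. Without Psca, which was not detected in mouse 1, the count was 7 of 7. Their median differences (log2) were 1.24 in mouse 1 and 1.99 in mouse 2. With the mouse block 4 passed limma, where 0.41% of all tested genes passed as higher, and without it 0 passed. No gene could pass with the block under the 4 settings that left 0 probes past the threshold. Those were an offset of 50, no filter, no pooling of the spread or uncorrected background. Whether the calls of these 4 genes were kept under the other alternatives with the block was not examined. These 4 were Pgc, the pepsinogen progastricsin (2.75 and 3.30), the water channel Aqp5 (2.31 and 3.18), the gastrokine Gkn3 (1.13 and 4.21) and the gastric claudin gene Cldn18 (2.01, a bound, and 1.79). The other tested probe of Gkn3 did not pass (0.57 and 2.86; limma adjusted p = 0.131 with the block, against 0.0439 at the brighter one). The signal of Pgc in the pools of mouse 1 was 137.2 in small and 702.4 in large tumours, and in those of mouse 2 it was 293.0 and 2361. The other 4 did not pass at their brightest probes: the gland mucin gene Muc6 (1.19 and 2.05, the latter a bound), the cathepsin gene Ctse (1.27 and 1.87), A4gnt, which makes a glycan of gland mucin (1.21 and 0.19), and Psca, which was not detected in mouse 1 (0.80 in mouse 2). The 3 probes of Ctse ranged from 0.36 to 1.70 in the mean of both mice, and the probe at 1.70 passed with the block (limma adjusted p = 0.0478). Several of these genes were already known from these data to be higher, so the list is not independent evidence.

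Genes of the gastric pit, where Tff1 is made, gave no common direction. Of 6 genes, 4 were tested and 1 was higher in both mice, the transcription factor gene Foxq1 (0.86 in mouse 1 and 0.41 in mouse 2), which did not pass limma with or without the block. The gastrokine genes Gkn1 (-0.85 and 3.37) and Gkn2 (-1.72 and 5.36), named after their values were seen, were lower in the large pool of mouse 1 and higher in that of mouse 2. The signal of Gkn2 was 124.5 in small and 65.5 in large tumours of mouse 1, and 73.1 and 1405 in mouse 2. The mucin gene Muc5ac, also named after its values were seen, was not detected in mouse 1 at its tested probe and differed by 0.79 in mouse 2. Its other probe was detected only in the small pool of mouse 1. Vsig1 and Sox2 were not detected on any array. Tff2 was higher in the large pool of mouse 1, in which Gkn1 and Gkn2 were lower. In that pool Gkn2 was barely detected (detection p-value 0.0480). The part of pit cells in the Tff2 difference was not tested.

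Parietal and chief cell genes were low: 1 to 3 of 4 were detected per array, and Pga5 on none. Of these, Cblif, gastric intrinsic factor, was not detected in the small pool of mouse 1 and differed by 2.33 in mouse 2. Atp4a, the proton pump subunit, differed by 0.24 and 0.05. The summed signal of the gland genes was 3771 to 5939 in small and 14344 to 25492 in large pools, that of the pit genes 1603 to 1608 in small and 1914 and 6408 in large pools, and that of the parietal and chief cell genes 151 and 333 in small and 171 and 435 in large pools. Most of the gland sum came from Gkn3 (2835 and 736 in small, 6075 and 12627 in large pools) and Ctse (2313 and 2187, then 5398 and 8240). The part of gastric-type cells in the Tff2 difference was not tested.

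**Figure D3:**
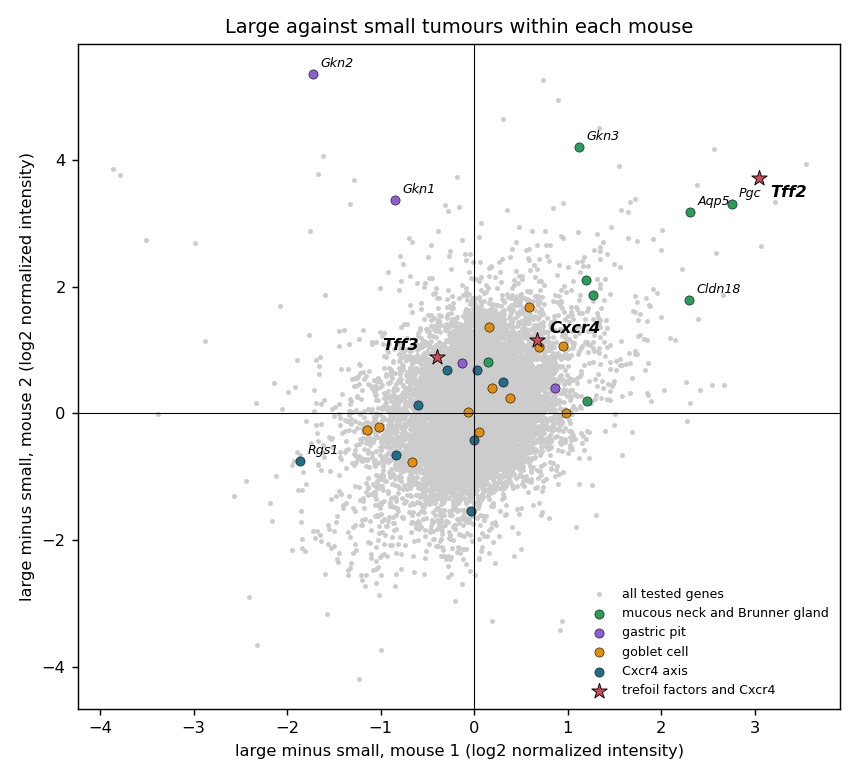
Large minus small log2 difference in mouse 1 (horizontal) and mouse 2 (vertical), 1 point per tested gene; stars are Tff2, Tff3 and Cxcr4, colours the gene lists. Tff2 (3.05 and 3.72) stands at the upper right with Pgc and Aqp5, Cxcr4 (0.67 and 1.15) lies at the edge of the cloud, and Tff3 (-0.40 and 0.89) lies in the upper left quadrant, where Gkn1 and Gkn2 stand far out.

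Genes of goblet cells, the source of Tff3, gave no common direction. Of 12 genes, each tested, 6 were higher and 3 lower in both mice, none passed limma with or without the block, and their median differences (log2) were 0.17 in mouse 1 and 0.13 in mouse 2. Agr2, a protein disulphide isomerase needed for mucin production, differed by 0.59 and 1.64 (a bound). The transcription factor genes Creb3l1 (0.95 and 1.07) and Spdef (0.69 and 1.04), the latter a driver of goblet cell maturation, and the kallikrein gene Klk1 (0.15 and 1.37) were higher in both mice. The 3 lower in both mice were Fcgbp, which encodes a mucus-binding protein (-0.67 and -0.76), Clca1, which encodes a secreted mucus protease (-1.01 and -0.21), and Retnlb, which encodes a resistin-like molecule (-1.14 and -0.27). The summed signal of the goblet genes was 76237 in small and 76731 in large tumours of mouse 1, and 54868 and 62436 in mouse 2. Of these sums 81.3% to 83.6% came from Muc2, Zg16 and Spink4. The sum of the other 9 genes was 14292 in small and 12579 in large tumours of mouse 1, and 9348 and 10978 in mouse 2. The part of goblet cells in the Tff3 values was not tested.

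Of transcription factors known to act on trefoil genes, 10 to 11 were detected per array. Of 13 genes 11 were tested, 5 were higher and 3 lower in both mice, and none passed limma with or without the block. Their median differences (log2) were 0.21 in mouse 1 and 0.29 in mouse 2, while the median of the differences averaged over both mice was -0.003. Foxa3, a forkhead factor of gut epithelium, differed by 0.69 and 0.55, and Gata4, a factor of the stomach and proximal intestine, by 0.22 (a bound) and 0.62. Hif1a, the hypoxia-inducible factor, differed by -0.35 and -1.72. Esr1, the oestrogen receptor, which controls human TFF1, was not detected on any array. Smooth muscle genes, the remaining list, had 3 of 4 tested and none passed; 1 was higher and 0 lower in both mice. Acta2 differed by 0.16 and 0.69, Myh11 by 0.33 and -0.11 and Des by 0.09 and -0.33, and Cnn1 was not detected. Of 6 intestinal epithelial genes, none passed. At their brightest probes 5 were lower and Epcam, detected in large pools only, was higher in both mice. Differences were -0.43 and -0.96 for the brush border gene Vil1, -0.63 and -0.41 for the keratin gene Krt20, and -0.18 and -0.28 for the homeobox gene Cdx2. Cdh1 differed by -0.21 and -0.03 at its brightest probe but by 0.01 and 0.21 at its other tested probe. The other tested probe of Krt20, detected on 2 arrays, went opposite ways in the mice.

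**Figure D4:**
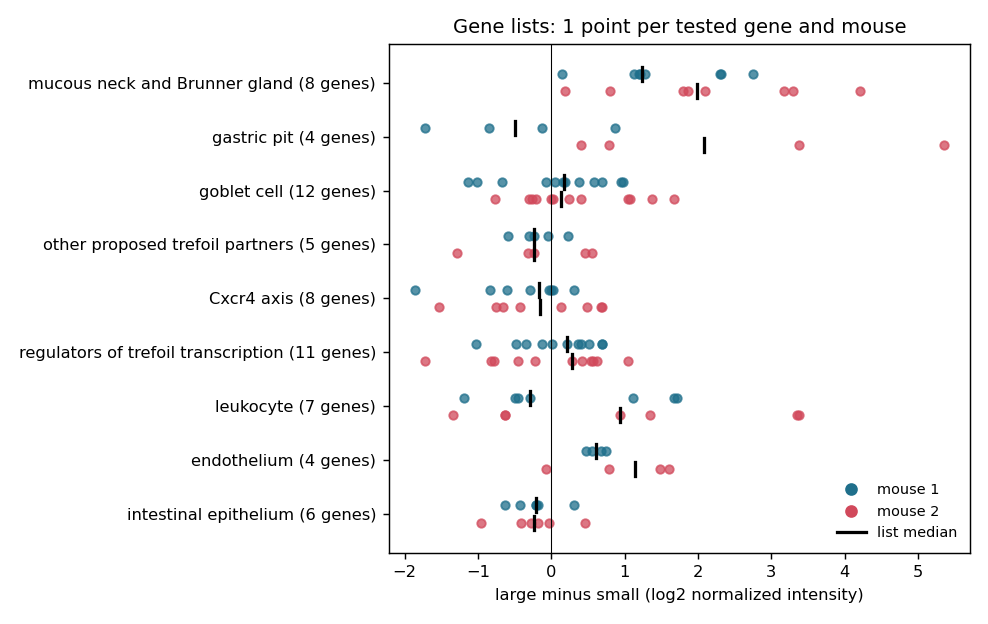
Large minus small log2 difference of each tested gene (points) in mouse 1 and mouse 2 by gene list, with list medians as black ticks. The 8 gland genes lie to the right of 0 in both mice (medians 1.24 and 1.99), although Psca, the leftmost in mouse 1, was not detected there, the pit gene medians fall on opposite sides of 0, and goblet and Cxcr4 axis genes spread to both sides.

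The tested genes closest to Tff2 over the 4 arrays were found by the root mean square distance between log2 values centred on each gene's mean. Such a ranking always returns a nearest gene, so the distances are a description. Pgc was closest, at 0.20, and stood higher in mouse 2 than in mouse 1 by 1.09 in small and 1.63 in large pools (log2), as Tff2 did by 0.88 and 1.56. Next came a transcript listed only as LOC100041004 (0.25), then U46068 (0.54), LOC100048733 (0.69) and the chitinase gene Chit1 (0.72). Pgc and each of these passed limma with the block (adjusted p = 0.000687 to 0.0262) and none without it (0.0918 to 0.569). Chit1 was detected on 2 arrays, those of the large pools, and passed the detection filter only through them. Its signals were 58.7 and 67.9 in small and 234.2 and 208.1 in large pools. Since the genes were picked for closeness to Tff2, their shared direction and their calls are no separate result.

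The genes closest to Tff3 were Hspe1, a mitochondrial chaperonin, at 0.02, followed by Scimp, Ift22, LOC100038882 and Ap4s1 at 0.04 to 0.05. Their differences were -0.44 to -0.31 in mouse 1 and 0.81 to 0.98 in mouse 2. Cxcr4 was closest to Vmac at 0.02, then 1700088E04Rik, the myelin enzyme gene Cnp, Eva1c and Hsbp1l1 at 0.03 to 0.05, with differences of 0.58 to 0.74 and 1.13 to 1.28. Of these, Eva1c was detected on 2 arrays, those of the large pools, so its differences rest on undetected small pools. No goblet gene was among the 5 closest to Tff3, and no gene of the Cxcr4 list among those closest to Cxcr4. With only 12 goblet and 8 Cxcr4 list genes among 13902 tested, such absence is the usual outcome, and no conclusion is drawn from it.

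**Figure D5:**
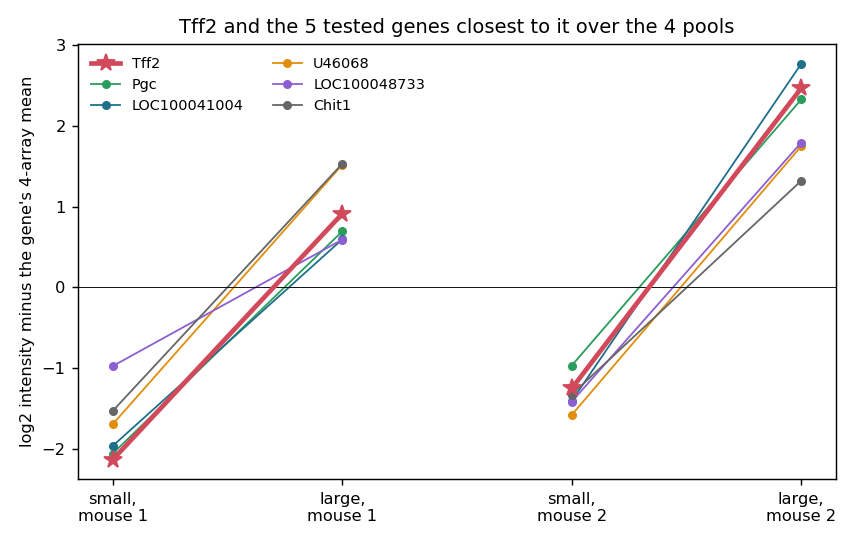
Log2 intensity minus each gene's mean over the 4 arrays for Tff2 and the 5 tested genes closest to it; lines join the pools of a mouse. All 6 genes are higher in the large pool of both mice, which for the 5 follows from choosing them by closeness to Tff2. Pgc (distance 0.20) stays nearest to Tff2.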

How the data were processed

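Biotin-labelled RNA of 4 tumour pools was read on Illumina bead arrays, 1 per pool. Per the file headers, the deposited scanner table (gene expression module 3.2.6) gives linear intensity signals without normalization or background subtraction. The deposited detection p-values compare each probe with negative controls, and the deposited bead counts and standard errors describe each reading. The submitters' processing notes name BeadStudio. The authors also deposited normalized intensity values for 15274 probes, by a method that these sources do not state. Signals were processed with neqc of limma 3.58.1 (R 4.3.3; normexp background from the detection p-values, offset 16, quantile normalization, log2). Probes detected (p under 0.05) on 2 or more arrays were tested with lmFit and eBayes (two-sided, Benjamini-Hochberg threshold 0.05), and a gene was taken at its brightest tested probe. Fits were run on simulated data with preset spreads as a check of the code, which does not measure how reliable the calls are. Names were updated through RefSeq (GRCm38.p6): 8057 probes were renamed and 9484 kept the file's name. A difference with 1 array below detection is a bound, set against the dimmest detected signal of that array; counts and medians use the normalized values.

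The fit without the mouse was the main one, and blocking on the mouse was an alternative. The labels say that same-numbered pools come from the same animal. Across genes, mouse differences in the small and in the large pools correlated at r = 0.250. Where nothing else is said, a call of a member or list gene was the same with both fits. Named genes were all members, partner and Cxcr4 pathway genes, up to 4 genes per other list by size with the same sign in both mice, undetected markers, and the 5 genes most like each tested member. Members and lists were chosen with earlier results of these data known. Alternatives were the background correction, offset, scaling, the authors' values, the filter, the block and each array left out; mouse 1 alone was added for the lists after the data were seen. Values of some list genes are not reported here. The number of arrays limits the precision.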

Additional observations from a re-analysis of the deposited data

How the results depend on the processing

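Without the mouse block, 0 probes passed limma as reported and 2 with median scaling, and 0 to 70 with 1 array left out. With the block (the pairing by mouse) 120 passed (68 higher, 52 lower), 110 with an intensity trend, 36 with the authors' values, 322 when detected on all 4 arrays (146 higher, 176 lower) and 457 with median scaling (173 higher, 284 lower). No probe passed with the block and no background correction, an offset of 50, no filter or no pooling of the spread. The log2 difference of Tff2 with the block was 3.39 as normalized here, with a trend or when detected on all 4 arrays, 3.38 with median scaling and 3.31 with the authors' values, and passed in each. With 1 array left out it was 2.61 to 4.16. The Tff3 difference was -0.34 to 0.83 with 1 array left out, being -0.34 without the small pool of mouse 2; the cause was not tested. The block changed no call of Tff3 or Cxcr4. Of 169 counts of direction and medians of the gene lists under alternatives, 23 moved. With the block, no list gene could pass where no probe passed, and the calls of list genes under the other alternatives were not examined. The authors' values hold 4 of the 8 gland genes. Median scaling moved the median of all genes in mouse 2 from 0.01 to -0.10. The dim probes of Cxcr4 and Lingo2 limit what can be said of the receptors.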
